A study of Urocitellus parryii with 3 samples.

Results

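The 3 miRNAs described here, miR-451a-5p, miR-144-3p and miR-486-5p, are among the most abundant miRNAs of red blood cells, and they were followed here in liver small RNA of a hibernator, the arctic ground squirrel (Urocitellus parryii). Every sequenced read that shared its first 18 bases with the mature form of one of them was taken as a read of that miRNA. This gave 499 distinct reads of 576915 in the whole table, 183 for miR-451a-5p, 66 for miR-144-3p and 250 for miR-486-5p. Together they were read 3323 times, which was 0.0194% of the 17086590 reads placed on the genome.

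There were 3 groups, each a single pooled library. The post-reproduction library mixed RNA of 6 summer animals with normal body temperature, housed at 16 h light and 8 h dark, and served as the non-hibernating reference. The late torpor library mixed 4 animals and the early arousal library 4 others, all kept at 4 h light and 20 h dark. Per the labels, hibernating animals carried a temperature transmitter, passed at least 4 torpor bouts and were killed on day 4 of a bout, without a word on how that day applies to early arousal. All 14 animals were wild-caught, and the labels give no age. The summer animals were anaesthetised before death, so that hibernation, light cycle and anaesthesia cannot be told apart in a comparison with post-reproduction. Since each stage is 1 library, no test between stages was possible: each ratio compares libraries, and each interval in brackets is an exact 95% interval that covers counting error only. Unless named, the libraries are listed in the order post-reproduction, early arousal, late torpor.

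A miRNA is cut from a hairpin-shaped precursor and recognises its targets mainly through its seed, bases 2 to 8 from the 5′ end. The genes of miR-144 and miR-451a lie side by side and are transcribed as a single unit in erythroid precursors under the control of GATA1. The miR-144 hairpin is cut by Drosha and then by Dicer, as most miRNA hairpins are. The miR-451a hairpin is too short for Dicer: Argonaute 2 cuts it, and the 3′ end is then trimmed back base by base, so its length reflects how far it was trimmed. miR-486-5p comes from a hairpin inside the ankyrin 1 gene, which encodes a protein of the red-cell membrane skeleton, and is cut by Dicer. Liver contains blood, and miR-451a-5p against miR-23a-3p is a common measure of red-cell material in blood samples. In a pooled tissue RNA, more or fewer red cells and more or less of a miRNA per cell cannot be told apart.

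The mature forms were read from the deposited reads and are shown because every result below turns on where they start and end. Capitals mark the seed, and T stands for U.

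miR-451a-5p: aAACCGTTaccattactgagtt
miR-144-3p: tACAGTATagatgatgtact
miR-486-5p: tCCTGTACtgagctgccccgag
miR-144-5p: gGATATCAtcatatactgtaag
miR-486-3p: cGGGGCAGctcagtacaggat

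The last pair are the partner arms, cut from the other side of the miR-144 and miR-486 hairpins. Each has a seed of its own, and no seed is shared among the 5 sequences. The lengths of 22, 20 and 22 nt for the members and the first 9 bases used to find them are the usual mammalian ones from general knowledge. Of all reads that began with those 9 bases, 99.8%, 96.7% and 99.2% fell on the sequence shown for miR-451a-5p, miR-144-3p and miR-486-5p. On the genome assembly of the deposited table, whose build is not given in the sources used here, miR-451a-5p lay on the minus strand at GeneScaffold_2360:54188-54209. On the same strand, miR-144-3p lay at GeneScaffold_2360:54322-54341, with 112 bases between it and miR-451a-5p, and miR-144-5p at GeneScaffold_2360:54357-54378. The first 19 bases of miR-144-5p also fit 2 other scaffolds. miR-486-5p was placed on both strands of GeneScaffold_3710, at 61041-61062 on the plus strand and 61081-61102 on the minus strand, with miR-486-3p at 61083-61103 on the plus strand. All 1403 of its reads were placed at both positions, which differ in the genome base after the mature form, C or G. Only 8 of the reads with a readable end stopped on this C, so for most reads the hairpin of origin cannot be told apart. No gene annotation of this assembly was used here.

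miR-451a-5p was highest in late torpor, and its level in early arousal was near that of post-reproduction. It was read 356 times in post-reproduction, against 443 times at early arousal and 744 times in late torpor. Normalised for depth and library composition, these were 64.9 (58.4 to 72.0), 67.2 (61.1 to 73.8) and 145.6 (135.3 to 156.4) counts per 1000000 reads (CPM). The post-reproduction and early arousal intervals overlapped, while late torpor stood apart from both. The ratio of late torpor to post-reproduction was 2.24 (1.97 to 2.55), and that of early arousal to post-reproduction was 1.04 (0.899 to 1.19). Early arousal held 0.462 (0.410 to 0.520) of the late torpor level.

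miR-144-3p, the Dicer-cut product of the same transcript, followed another order. The libraries held 109, 66 and 202 of its reads, or 19.9 (16.3 to 23.98), 10.0 (7.75 to 12.7) and 39.5 (34.3 to 45.4) CPM. The 3 intervals did not overlap: late torpor was highest and early arousal lowest. Early arousal had 0.504 (0.365 to 0.690) of the post-reproduction level and 0.253 (0.189 to 0.336) of the late torpor level, and late torpor stood at 1.99 (1.57 to 2.53) against post-reproduction.

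miR-486-5p took the same order as miR-144-3p, with a smaller step in late torpor. It had 497, 258 and 648 reads, or 90.6 (82.9 to 98.98), 39.2 (34.5 to 44.2) and 126.8 (117.2 to 136.9) CPM. Late torpor exceeded post-reproduction by a ratio of 1.40 (1.24 to 1.58). Early arousal had 0.432 (0.370 to 0.503) of the post-reproduction level and 0.309 (0.266 to 0.357) of the late torpor level. None of the 3 intervals overlapped another.

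**Figure D1:**
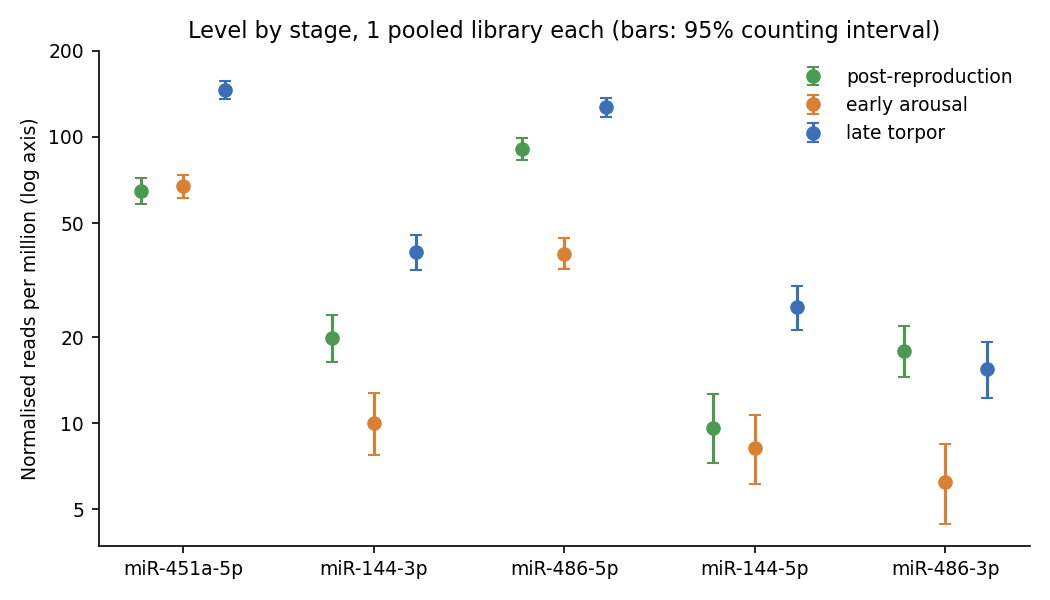
Normalised CPM on a log axis for the 3 members and both partner arms in the 3 pooled libraries, 1 point per library, with bars for the exact 95% counting interval. For miR-451a-5p post-reproduction and early arousal coincide near 65 to 67, while miR-144-3p and miR-486-5p lie lowest in early arousal.

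Partner arms gave a second reading of the same hairpins. miR-144-5p had 53, 54 and 130 reads. Its ratio of late torpor to post-reproduction was 2.63 (1.90 to 3.69), beside 2.24 for miR-451a-5p and 1.99 for miR-144-3p. Between early arousal and post-reproduction its ratio was 0.848 (0.570 to 1.26), an interval that includes no difference. It overlaps that of miR-144-3p, 0.504 (0.365 to 0.690). miR-486-3p had 98, 41 and 79 reads, with 0.348 (0.236 to 0.506) of the post-reproduction level in early arousal and 0.865 (0.635 to 1.18) in late torpor. It thus shared the low early arousal level of miR-486-5p, and its interval in late torpor included no difference.

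To read these ratios against the other sequences, all reads were grouped by their first 18 bases, and groups with at least 100 reads over the compared libraries were counted as different from 2-fold on. For late torpor against post-reproduction, 14.1% of 539 such groups were 2-fold higher, and 1 of the 3 members was, miR-451a-5p, while 20.6% were 2-fold lower, no member among them. For early arousal against post-reproduction, 13.8% of 559 groups were 2-fold lower, and 1 of 3 members was, miR-486-5p, with miR-144-3p just short of the limit. A further 9.12% were 2-fold higher, no member among them. For early arousal against late torpor, 8.21% of 536 groups were 2-fold lower, and all 3 members were, while 8.4% were 2-fold higher. The median log2 ratio of the members was 0.99, -0.99 and -1.70 in the 3 comparisons, beside -0.00017, -0.015 and -0.081 over all groups and 0.059, -0.17 and -0.30 over the 83 named miRNAs described next. Most groups match no listed miRNA, and the widest ratios in the plot of all start groups belong to such groups.

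Among groups that match a named miRNA the spread was much narrower. With 83 miRNAs compared, 2.41% were 2-fold higher in late torpor than in post-reproduction, which is 2 miRNAs, miR-451a-5p and miR-144-5p. miR-144-3p ranked next, at 3 of 83, and miR-486-5p at 14 of 83. For early arousal against late torpor 7.23% were 2-fold lower, or 6 miRNAs. These were miR-144-3p, miR-486-5p, miR-144-5p, miR-486-3p, miR-451a-5p and miR-184-3p, so that 5 of the 6 come from these 3 hairpins. For early arousal against post-reproduction also 7.23% were 2-fold lower: miR-184-3p, miR-200a-3p, miR-486-3p, miR-486-5p, miR-152-3p and miR-10a-5p. The list of named miRNAs was typed after these data had been seen and serves as a description. Both arms of the miR-144 and miR-486 hairpins were put on it by choice, so each of these hairpins can count with 2 arms. The place of miR-451a-5p among the 6 also depends on the scaling, as given below.

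**Figure D2:**
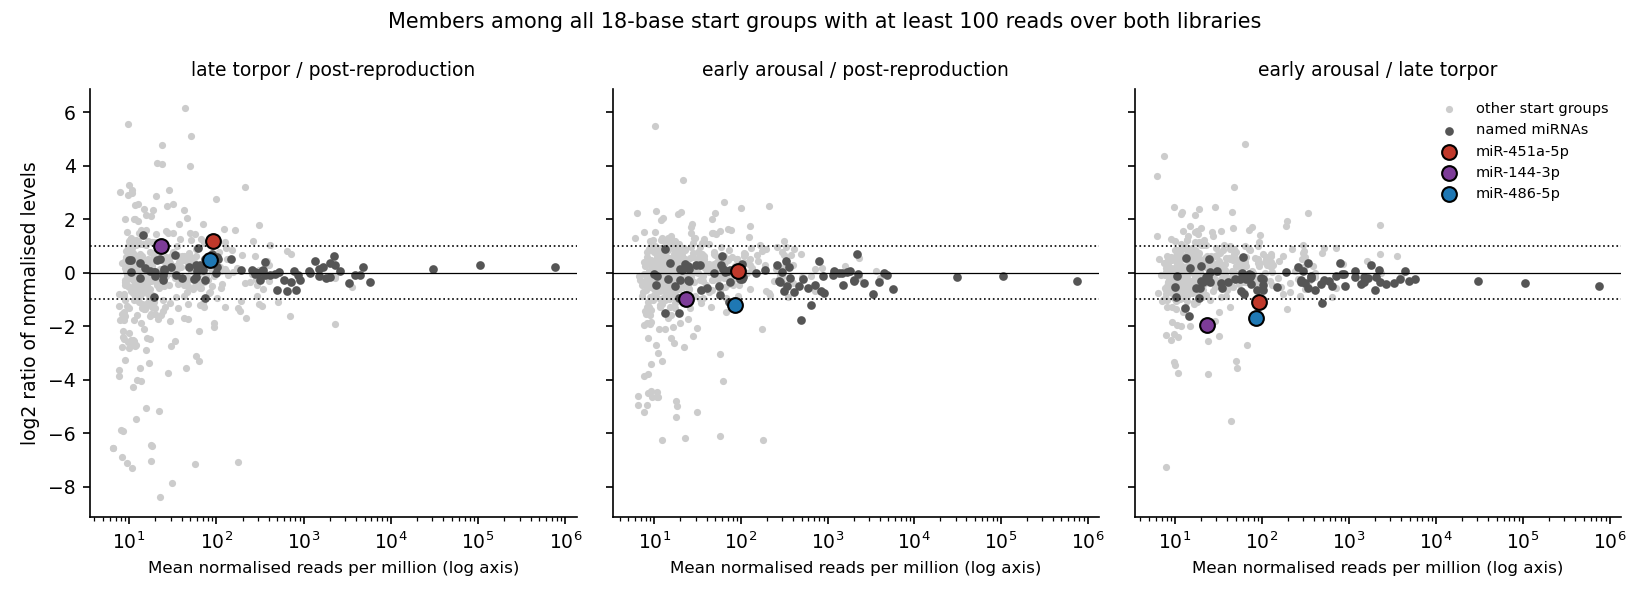
The log2 ratio of normalised levels against the mean level (log axis) for start groups with at least 100 reads over both libraries, 535, 559 and 536 points in the 3 panels, with dotted lines at 2-fold; 4 groups without a read in a library are not drawn in the first panel. In the third panel the 3 members lie below the lower line and below nearly all named miRNAs.

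The scaling mattered for early arousal. Scaled to all placed reads instead, with no correction for composition, the log2 ratio of any sequence shifts by -0.16 for late torpor against post-reproduction, by 0.27 for early arousal against post-reproduction and by 0.43 for early arousal against late torpor. The order of the stages held for each member under every scaling tried, except that miR-451a-5p, level between early arousal and post-reproduction in the main scaling, had a log2 ratio of 0.32 (0.11 to 0.52) scaled to placed reads and of 0.23 (0.022 to 0.43) scaled over named miRNAs, with early arousal higher. Its log2 ratio for early arousal against late torpor, -1.11 in the main scaling, was -0.69 scaled to placed reads and -0.80 with scaling over named miRNAs, short of 2-fold. That of miR-486-5p for early arousal against post-reproduction, -1.21, was -0.95 scaled to placed reads.

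Ratios of members within a library are free of scaling, and here the members parted. In post-reproduction there were 3.27 (2.63 to 4.09) reads of miR-451a-5p per read of miR-144-3p, and in late torpor 3.68 (3.15 to 4.32). In early arousal there were 6.71 (5.17 to 8.83). The pair thus kept a like proportion in late torpor and post-reproduction, with a change of 1.13 (0.856 to 1.48), and differed in early arousal by a factor of 2.06 (1.45 to 2.92) against post-reproduction and 1.82 (1.34 to 2.504) against late torpor. In the main scaling, miR-451a-5p of early arousal stood at its summer level, while miR-144-3p lay at 0.504 of its own. The other arm of the miR-144 hairpin, miR-144-5p, lay at 0.848 (0.570 to 1.26), an interval that includes no difference.

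Against miR-486-5p, the order was different again. Reads of miR-451a-5p per read of miR-486-5p were 0.716 (0.623 to 0.822) in post-reproduction, 1.72 (1.47 to 2.01) at early arousal and 1.15 (1.03 to 1.28) in late torpor. All 3 intervals lay apart. The most read member was therefore miR-486-5p in summer and miR-451a-5p in both hibernation libraries, with the limit that ligation and amplification favour some sequences, so reads of different miRNAs are not molecules on the same scale. Reads of miR-486-5p per read of miR-144-3p moved less, from 4.56 (3.70 to 5.66) in post-reproduction to 3.91 (2.97 to 5.20) in early arousal and 3.21 (2.74 to 3.78) in late torpor.

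Set against miR-23a-3p, the reference of haemolysis tests, miR-451a-5p had 4.14 (3.26 to 5.30) reads per read in post-reproduction, 4.43 (3.56 to 5.56) at early arousal and 8.27 (6.64 to 10.4) in late torpor. miR-23a-3p was counted over its first 21 bases, which set it apart from miR-23b-3p, and had only 86, 100 and 90 reads. The 18-base group that both share had 331, 408 and 373. The ratio was 2.00 (1.43 to 2.79) times as large in late torpor as in post-reproduction, and 1.07 (0.766 to 1.49) times in early arousal, an interval that includes no difference. Against the shared group these changes were 1.85 (1.52 to 2.26) and 1.01 (0.821 to 1.24). The composition-free measure thus gave the same order for miR-451a-5p as its normalised level.

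**Figure D3:**
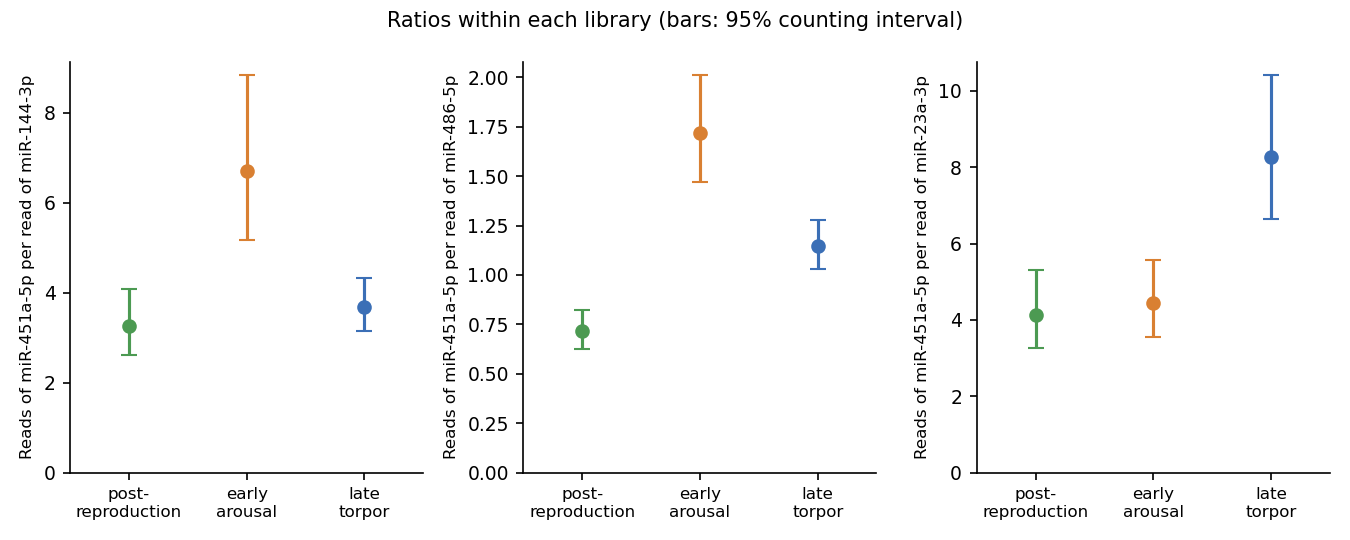
Reads of miR-451a-5p per read of miR-144-3p, miR-486-5p and miR-23a-3p within each pooled library, with bars for the 95% counting interval, on linear axes from 0. The first ratio is highest in early arousal at 6.71, the second differs in all 3 libraries, and the third is highest in late torpor at 8.27.

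The arms of a hairpin also showed their proportion. miR-144-3p had 2.06 (1.47 to 2.91) reads per read of miR-144-5p in post-reproduction, 1.22 (0.840 to 1.78) at early arousal and 1.55 (1.24 to 1.95) in late torpor. The change from post-reproduction to early arousal was 0.594 with an interval of 0.355 to 0.996, at the border of counting error. miR-486-5p had 5.07 (4.08 to 6.36) reads per read of miR-486-3p in post-reproduction, 6.29 (4.51 to 8.98) at early arousal and 8.20 (6.49 to 10.5) in late torpor, a factor of 1.62 (1.16 to 2.26) between late torpor and post-reproduction.

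Other miRNAs that are abundant in red cells, a list of 15 beside the members, were less uniform. They include both partner arms, miR-16-5p, miR-25-3p and miR-92a-3p. The table holds only reads placed on the genome, and miR-451b, miR-4732-3p, miR-4732-5p, miR-96-5p, miR-182-5p and miR-22-3p had no read in it. The starts used to find them were not checked against a miRNA database, so a lack of reads does not show that they are absent. Of the 8 with at least 100 reads over both libraries, 1 was 2-fold higher in late torpor than in post-reproduction and none was 2-fold lower, with a median ratio of 1.22, beside 1.04 over the 83 named miRNAs. miR-16-5p, which restrains the cell cycle in many cell types, had 93.9, 84.4 and 134.0 CPM. miR-25-3p had 131.5, 129.8 and 186.5 CPM. The most read of the list, miR-185-5p, had 298.9, 236.6 and 302.7 CPM, and its ratio of late torpor to post-reproduction was 1.01 (0.944 to 1.09). For miR-92a-3p that ratio was 1.04 (0.784 to 1.38) and for miR-363-3p 0.925 (0.694 to 1.23), both intervals including no difference. Between early arousal and late torpor 2 of the 8 were 2-fold lower, both partner arms. The median ratio was 0.677, beside 0.813 over the 83 named miRNAs, of which 7.23% were 2-fold lower. The highest ratio of the 8 was that of miR-363-3p at 1.17 (0.897 to 1.54), an interval that includes no difference.

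Markers of other blood and vessel cells moved in part with the members. The 7 leukocyte miRNAs summed to 75.0 CPM in post-reproduction, 65.1 at early arousal and 116.6 in late torpor. Most of this came from miR-142-5p, a miRNA of all blood lineages, with 257, 336 and 454 reads and a ratio of 1.90 (1.62 to 2.22) for late torpor against post-reproduction and 1.09 (0.922 to 1.28) for early arousal. miR-146a-5p, the other leukocyte marker with enough reads to compare, had 125, 77 and 117 reads, with ratios of 1.004 (0.774 to 1.302) for late torpor and 0.513 (0.381 to 0.686) for early arousal against post-reproduction, so it did not follow miR-142-5p. miR-142-3p had 0, 1 and 1 reads, miR-223-3p, a granulocyte miRNA, 14, 6 and 12, and miR-342-3p none. miR-126-3p and miR-126-5p, of endothelium and platelets, summed to 28.3, 26.9 and 39.1 CPM. miR-122-5p, the defining hepatocyte miRNA, made up 74.9%, 72.4% and 76.3% of placed reads, and is known as the leading miRNA of liver. On the normalised scale of the other markers it had 767114, 616621 and 874373 CPM. Its ratio was 1.14 (1.138 to 1.141) for late torpor against post-reproduction and 0.705 (0.704 to 0.706) for early arousal against late torpor. Its partner arm miR-122-3p, with 73, 111 and 77 reads, had 1.12 (0.829 to 1.52) for the latter, an interval that includes no difference. miR-148a-3p, miR-192-5p and miR-194-5p had no placed read by the starts used here, which were not checked against a miRNA database. The part of blood content in the members' levels was not tested.

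The miRNAs whose pattern over the 3 libraries lay nearest were found among 235 start groups with at least 100 reads in every library, by the Euclidean distance of centred log2 levels. For miR-451a-5p the nearest named miRNAs were miR-142-5p at 0.23, miR-93-5p at 0.39 and miR-16-5p at 0.47. For miR-144-3p they were miR-486-5p at 0.36, miR-451a-5p at 0.79 and miR-142-5p at 0.94. For miR-486-5p the nearest were miR-744-5p and miR-30d-5p, each at 0.73, and miR-148b-3p at 0.79, since miR-144-3p missed the minimum in early arousal and was not among the candidates. Start groups matching no listed miRNA were nearest in some cases, and a distance over 3 libraries is a description.

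The reads were 30 bases long and ran into the 3′ adapter, so most showed where the small RNA ended. A length of 18 to 26 nt was found for 322 of 356 reads of miR-451a-5p in post-reproduction, 418 of 443 at early arousal and 709 of 744 in late torpor. The reference form and the longer forms that together carried most of them are shown, with capitals for the bases beyond the reference form. A shorter form of 21 nt is not shown. It had 9, 24 and 19 reads, more in each library than the 26-nt form with 5, 10 and 17.

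miR-451a-5p, 22 nt: aaaccgttaccattactgagtt
miR-451a-5p, 23 nt: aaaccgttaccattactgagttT
miR-451a-5p, 24 nt: aaaccgttaccattactgagttTA
miR-451a-5p, 26 nt: aaaccgttaccattactgagttTAGT

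The 23-nt form led in every library, and the reference form of 22 nt came next. The 23-nt form made up 62.1% of inserts in post-reproduction, 56.0% at early arousal and 61.1% in late torpor, from 200, 234 and 433 inserts. The 22-nt form made up 15.2% (11.5 to 19.6), 20.1% (16.4 to 24.3) and 15.9% (13.3 to 18.8), from 49, 84 and 113. The added bases match the genome. A T added after the hairpin was cut would look the same as the encoded T at base 23, and an A after it the same as the encoded A at base 24.

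Counting only inserts that match the genome to their end, 16.96% were of 22 nt in post-reproduction, 21.8% at early arousal and 17.2% in late torpor. Those of 24 to 26 nt were 8.997% (5.96 to 12.9), 10.1% (7.30 to 13.6) and 12.2% (9.77 to 14.9). Those of 21 nt or less were 4.84% (2.67 to 7.99), 7.27% (4.89 to 10.3) and 4.72% (3.23 to 6.63). Of the 22-nt and 23-nt forms together, the 22-nt form made up 19.7% (14.9 to 25.2), 26.4% (21.7 to 31.6) and 20.7% (17.4 to 24.3). Early arousal thus had the largest share of short forms, with an odds ratio of 1.38 (0.980 to 1.92) against late torpor and 1.46 (0.966 to 2.24) against post-reproduction, and both intervals include no difference. On other cuts of the same inserts the interval excluded no difference: the 23-nt form made up 60.8% of genome-matching inserts in early arousal and 69.2% in post-reproduction, an odds ratio of 0.690 (0.492 to 0.964). Forms longer than the reference made up 65.3% of all inserts in early arousal and 72.4% in late torpor, an odds ratio of 0.720 (0.550 to 0.942). Such odds ratios were computed 87 times over the members, and 7 of the intervals excluded 1, with no adjustment for their number.

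The mean insert length of miR-451a-5p was 22.92 nt in post-reproduction (22.8 to 23.01), 22.81 nt at early arousal (22.7 to 22.9) and 22.91 nt in late torpor (22.8 to 22.98), with normal 95% intervals over inserts. The standard deviation over inserts was 0.894, 0.951 and 0.970 nt. The 3 intervals of the mean overlapped. With the placed part of a read taken in place of its insert, the means were 22.69, 22.74 and 22.84 nt, so that post-reproduction was then the shortest. The order of the libraries by mean length thus depended on how the end was read. Very long forms were rare: reads placed over at least 27 bases numbered 2, 1 and 3, and those over at least 28 bases 0, 0 and 2. No read of 1543 was placed over all 30 bases, where 3 counts would be a share of 0.194%, and RNA over 30 nt had been removed by the gel.

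**Figure D4:**
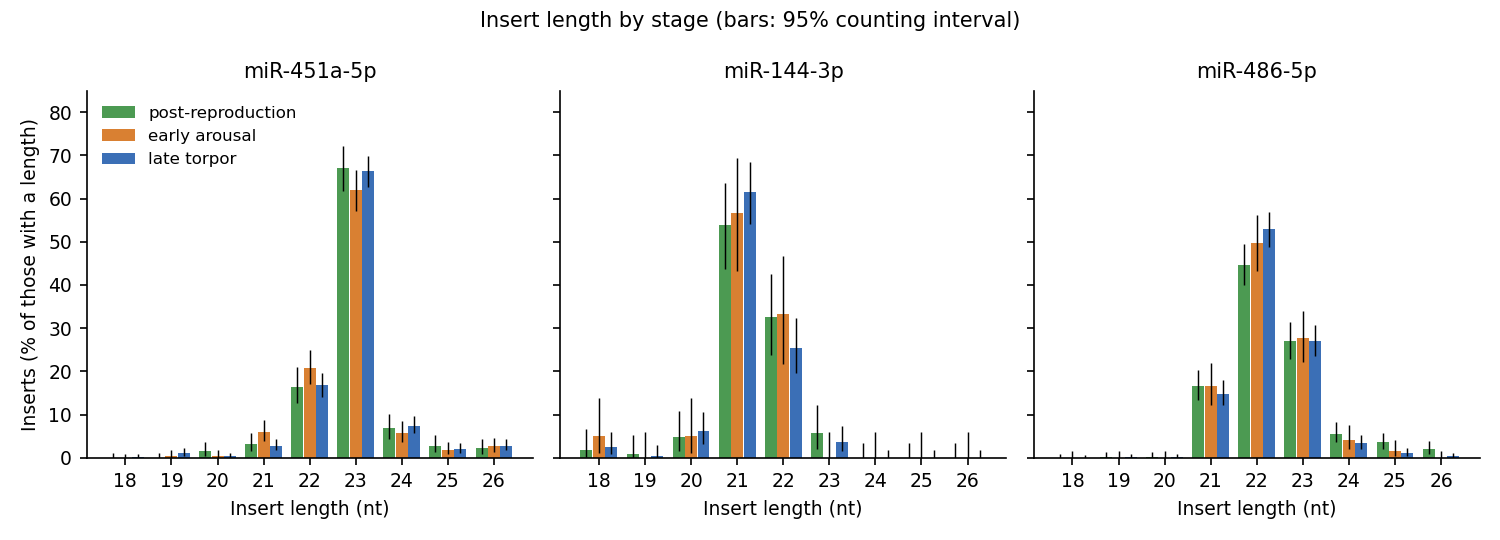
Share of inserts by length from 18 to 26 nt for the 3 members, with coloured bars for the 3 pooled libraries and black lines for the 95% counting interval. miR-451a-5p peaks at 23 nt, miR-144-3p at 21 nt and miR-486-5p at 22 nt in every library.

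Other miRNAs set a frame for these lengths. Named miRNAs other than miR-122-5p and the members had a mean of 22.15, 22.18 and 22.19 nt, and the 22-nt form made up 75.1%, 73.0% and 74.1% of their 22-nt and 23-nt inserts, so miR-451a-5p was longer than these in every library. miR-144-3p had a mean of 21.3 nt (21.2 to 21.5) in post-reproduction, 21.1 nt (20.9 to 21.4) at early arousal and 21.2 nt (21.1 to 21.3) in late torpor. miR-486-5p had 22.39 nt (22.3 to 22.5), 22.2 nt (22.1 to 22.4) and 22.23 nt (22.2 to 22.3), longest in summer.

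Identity with the reference form separated the members far more than the stages did. The share of identical inserts was 4.81% (1.58 to 10.9), 5% (1.04 to 13.9) and 6.25% (3.27 to 10.7) for miR-144-3p, from 5, 3 and 12 inserts. For miR-486-5p it was 38.7% (34.1 to 43.4), 44.4% (38.0 to 50.9) and 48.9% (44.8 to 52.9), from 172, 107 and 299. Counts based on exact matches therefore keep only a small part of miR-144-3p and miR-451a-5p. The forms that replaced them are shown, again with capitals for what differs.

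miR-144-3p, 21 nt: tacagtatagatgatgtactA
miR-144-3p, 22 nt: tacagtatagatgatgtactAT
miR-486-5p, 23 nt with T: tcctgtactgagctgccccgagT
miR-486-5p, 23 nt with A: tcctgtactgagctgccccgagA
miR-486-5p, 24 nt with AA: tcctgtactgagctgccccgagAA

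miR-144-3p was mostly 1 base longer than the reference form. Its 21-nt form, whose last A matches the genome, made up 50%, 46.7% and 56.8% of inserts. The 22-nt form with a further T, which does not match the genome, made up 20.2%, 23.3% and 17.7%. All forms that ended in added T alone summed to 30.8% (22.1 to 40.6), 33.3% (21.7 to 46.7) and 27.1% (20.9 to 34.0). No class of miR-144-3p inserts differed between stages beyond counting error, at 104, 60 and 192 inserts.

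Ends of unmatched T alone were rarer on miR-451a-5p than on the other members. Among inserts with a length, the part beyond the placed bases was T alone for 2.17%, 0.957% and 1.83% of miR-451a-5p, for 30.8%, 33.3% and 27.1% of miR-144-3p, and for 16.0%, 17.4% and 20.1% of miR-486-5p. For named miRNAs other than miR-122-5p and the members it was 3.61%, 4.10% and 3.89%. A alone made up 0.932%, 1.20% and 0.564% for miR-451a-5p, against 10.8%, 11.03% and 10.8% for these miRNAs. Other unmatched ends, mixed bases and sequencing errors included, were at 7.14%, 5.74% and 4.94% on miR-451a-5p, 2.88%, 3.33% and 3.65% on miR-144-3p, 12.1%, 10.4% and 5.23% on miR-486-5p and 6.45%, 6.99% and 6.02% on these miRNAs. Since an added T at base 23 of miR-451a-5p, or an added A at base 24, looks like the genome, its shares of T and of A are lower limits. The 24-nt form that ends in this A made up 5.28%, 5.50% and 6.77% of its inserts.

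The ends of miR-486-5p differed between summer and late torpor. Identical inserts were more frequent in late torpor, with an odds ratio of 1.52 (1.17 to 1.959). Forms that ended in added A alone were less frequent, at 16.4% (13.1 to 20.2) in post-reproduction, 11.6% (7.86 to 16.4) at early arousal and 10.5% (8.15 to 13.2) in late torpor, an odds ratio of 0.595 (0.408 to 0.867) for late torpor against post-reproduction. Forms with added T alone were 16.0% (12.7 to 19.7), 17.4% (12.9 to 22.8) and 20.1% (17.0 to 23.5), with intervals that overlap. Internal differences were also rarer in late torpor, at 0.490% beside 4.04% in post-reproduction and 2.49% in early arousal. Over all other reads of the table, A alone was at 13.5%, 12.9% and 13.5%, lower in early arousal and not in late torpor. The post-reproduction library had more mismatches in the adapter: an adapter without mismatch was found in 73.0% of all other inserts there, against 86.0% and 87.4% in early arousal and late torpor. Restricted to reads with a perfect adapter, an alternative chosen after seeing the data, the identical share of miR-486-5p was 38.7%, 45.1% and 49.5%, close to the values over all inserts. For miR-451a-5p the same restriction gave 12.1% (8.38 to 16.7), 20.4% (16.4 to 24.8) and 17.2% (14.3 to 20.3). Early arousal then exceeded post-reproduction by an odds ratio of 1.85 (1.16 to 3.02), where the value over all inserts was 1.40 (0.937 to 2.11). The odds ratios under this restriction come on top of the 87 counted above and were not adjusted for their number either.

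**Figure D5:**
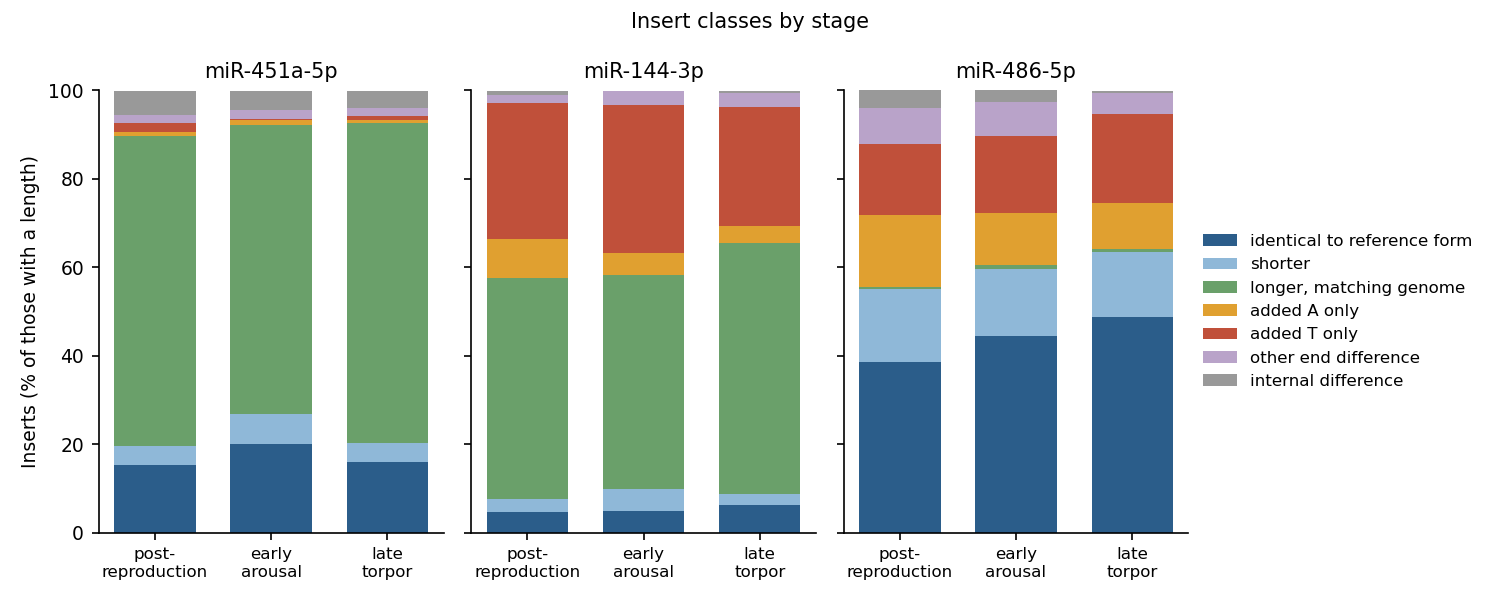
Share of inserts of the 3 members in each pooled library that are identical to the reference form, shorter, longer with bases that match the genome, or different at the end or inside. miR-451a-5p is mostly longer and matching, miR-144-3p is split between that class and added T, and miR-486-5p has the largest identical share, from 38.7% in post-reproduction to 48.9% in late torpor.

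The 5′ end, which sets the seed, was fixed more tightly than the 3′ end. For miR-144-3p, a start 1 base earlier had 3, 5 and 1 reads, and no read started 1 or 2 bases later. For miR-486-5p, a start 2 bases later had 10, 11 and 14 reads, which was 1.97% (0.9498 to 3.597), 4.09% (2.06 to 7.20) and 2.11% (1.16 to 3.52) of the reads of both starts. For miR-451a-5p no read started 1 or 2 bases earlier or 2 bases later in any library. A start 1 base later had 0, 6 and 19 reads, described further below.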

How the data were processed

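Small RNA of 18 to 30 nt from 3 RNA pools was sequenced after 15 cycles of PCR, per the labels' protocols. The authors deposited 1 table of genome positions in which each entry joins a read of 30 bases, its whole-number read count and its stage, per the file headers. Its other columns hold scaffold and position. Capitals mark the placed part. How reads were aligned, filtered or annotated is not given in the sources used here, nor is the build. Only placed reads are in it. Each distinct read was counted once per stage.

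The members, lists and rules were chosen with earlier results of these data known. The 9 bases that identify each member, and the 18-base starts of other miRNAs (21 bases for miR-23a-3p), came from general knowledge and were not checked against a miRNA database. Reads sharing 18 bases formed start groups (138376). Scaling used TMM factors (a trimmed mean of M-values) from the 824 groups with at least 100 reads (30% and 5% trimmed), by own code, which gave 0.977, 1.17 and 0.872 for post-reproduction, early arousal and late torpor, for 5614441, 5611673 and 5860476 placed reads. The counts of different groups left out 68 groups 1 substitution from a group 20 times as abundant. A start without a read lies under 3 counts among placed reads, 0.547, 0.455 and 0.587 CPM. This is no limit on the level of a miRNA in liver, since unplaced reads are missing and the starts were unchecked. Inserts were found by the 3′ adapter with 1 mismatch per 5 bases. Ends differing from the genome over up to 3 bases count as added, and others as internal differences. Start groups named were the members, their partner arms, listed markers with at least 100 reads and the 3 nearest patterns of each member. Reads carry no molecular identifiers, so PCR copies are not independent and intervals cover counting error only. Intervals of 95% are Clopper-Pearson ones, conditional on the summed reads for ratios, Poisson for levels, and conditional odds-ratio ones for ratios of ratios (Python 3.11.15, numpy 2.4.6, scipy 1.17.1, matplotlib 3.10.9). The code was tested on simulated data. Alternatives covered scaling, matching, placement, adapter and the limits of the background counts.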

Additional observations from a re-analysis of the deposited data

Results flagged for a closer look

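Reads that lacked the first base of miR-451a-5p were outside the counts above, since they do not share its first 18 bases. They appeared in the hibernation libraries and not in the non-hibernating one: 19 reads in late torpor, 6 in early arousal and 0 in post-reproduction. They made up 2.49% (1.51 to 3.86) of the reads of both starts in late torpor and 1.34% (0.492 to 2.89) in early arousal. In post-reproduction, with 0 of 356 reads, the exact interval reaches up to 1.03%, so the interval of late torpor lies above that limit and the interval of early arousal does not. A start moved by 1 base gives another seed. With 1 library per stage, the difference was not tested.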

How the results depend on the processing

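Of 87 alternative values for the log2 ratios of the members between libraries, 75 stayed within the counting interval of the reported value, and none past 2-fold reversed. Scaled to all placed reads, early arousal against post-reproduction moved to 0.32 for miR-451a-5p and -0.95 for miR-486-5p, and early arousal against late torpor to -0.69 for miR-451a-5p, -1.55 for miR-144-3p and -1.27 for miR-486-5p. Scaling over named miRNAs, chosen after seeing the data, gave -0.80 for miR-451a-5p and -1.38 for miR-486-5p there. With identical inserts only, miR-451a-5p moved to 0.51 for early arousal against post-reproduction and -0.79 against late torpor, miR-144-3p to 1.36 for late torpor against post-reproduction on 17 inserts, and miR-486-5p to 0.90 for the same and -0.95 for early arousal against post-reproduction. The log2 change of miR-451a-5p per miR-144-3p between early arousal and late torpor then was 1.57, and that per miR-486-5p 1.05, with 0.41 for late torpor against post-reproduction. Taking the placed part as the insert gave identical shares of 3.09%, 6.55% and 4.44% for miR-451a-5p in the 3 libraries (post-reproduction first, late torpor last), because all 246 identical inserts were placed beyond base 22, where the genome and the adapter both have T. It gave 11.9%, 18.2% and 15.8% for miR-144-3p and 68.0%, 70.9% and 76.2% for miR-486-5p, as added bases are then ignored, and mean lengths of 22.69, 22.74 and 22.84 nt for miR-451a-5p, which make post-reproduction the shortest in place of the longest. Among start groups, 187, 128 and 89 were at least 2-fold different for late torpor against post-reproduction, early arousal against post-reproduction and early arousal against late torpor. With at least 1000 reads there were 19 of 107, 12 of 117 and 11 of 116, and among named miRNAs 2, 6 and 6 of 83. At 1.5-fold there were 249 and 197 in the last 2 comparisons. No read of miR-486-5p had 1 position only, and an adapter of at least 8 bases leaves no insert over 22 nt, so it was not run. No paired analysis was possible because each stage has 1 library. The precision is limited by the 66 reads of miR-144-3p in early arousal.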
